A study of Homo sapiens with 8 samples.

Results

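The miR-200 and miR-205 loci are the chromatin around 6 microRNA (miRNA) genes, MIR200B, MIR200A and MIR429 on the short arm of chromosome 1, MIR200C and MIR141 on the short arm of chromosome 12, and MIR205 on the long arm of chromosome 1. Their members were the accessible regions that overlapped a window of 50 kb on either side of any of these genes in GENCODE 44 (GRCh38). Of 126658 accessible regions in the whole experiment, 36 were members, 6 of them at the miR-200b/miR-200a/miR-429 cluster, 13 at the miR-200c/miR-141 cluster and 17 at MIR205. Among accessible regions, those with a peak in any list, the choice used position only and not the size of a peak or its change. It was made with earlier results of these data known.

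Accessibility had been profiled by ATAC-seq, which uses a transposase to insert adapters into DNA free of nucleosomes, in wild-type MCF10A cells, an established and immortalised human mammary epithelial line that does not form tumours. Cells had received 5 ng/ml of the cytokine TGFβ1 for 6, 24 or 72 h, or solvent (0.1% BSA in PBS), with 2 replicates in each of the 4 conditions. The labels place the solvent samples at 0 h, whereas a legend in the study has the control treated with solvent for 72 h. Both replicates of a condition had been called together into 1 peak list, so no value below has a replicate error, no difference was tested, and no p-value is given.

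The miR-200 family and miR-205 are abundant in epithelial cells. They pair with sites in the transcripts of ZEB1 and ZEB2, transcription factors that repress epithelial genes, and ZEB proteins in turn bind E-boxes in the promoters of both miR-200 clusters, so that each side represses the other. TGFβ1 is known to shift this loop towards ZEB as cells pass through an epithelial-mesenchymal transition (EMT), and ΔNp63, the form of p63 found in basal epithelium, is known to activate MIR205.

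The mature miRNAs are shown because their seeds, the bases that pair with targets, fall into 3 classes. Sequences are from RefSeq (GRCh38.p14), and capitals mark bases 2 to 8.
hsa-miR-200b-3p: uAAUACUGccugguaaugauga
hsa-miR-200c-3p: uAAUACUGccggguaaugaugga
hsa-miR-429: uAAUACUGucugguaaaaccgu
hsa-miR-200a-3p: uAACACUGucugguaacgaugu
hsa-miR-141-3p: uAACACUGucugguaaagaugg
hsa-miR-205-5p: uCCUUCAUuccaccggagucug
The seed AAUACUG is shared by miR-200b, miR-200c and miR-429 and therefore comes from both clusters. The other class, miR-200a and miR-141, also drawn from both, differs from it by a single seed base, U4C, counted from the 5′ end with the base of miR-200b first. The seed of miR-205 differs from that of miR-200b at 5 of its positions.

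Accessibility of a region was taken as its AUC, the area under the peak caller's significance curve, summed over the peaks of a list in that region. AUCs tended to be larger in the TGFβ1 lists than in solvent. The median ratio at regions within 3 kb of a transcription start site (TSS) reached 1.36-fold (6 h), 1.30-fold (24 h) and 1.19-fold (72 h), and ratios below are log2 values from which that median was subtracted. A region was called higher or lower past 1.5-fold, a scaled log2 ratio of 0.58 either way, and gained or lost where a peak was in the TGFβ1 list alone or in the solvent list alone. All 3 comparisons share the solvent list, so they are not independent of each other.

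The chromatin at the MIR200B, MIR200A and MIR429 hairpins was examined first. The 3 hairpins lie in a row on the plus strand at chr1:1167104-1167198, chr1:1167863-1167952 and chr1:1169005-1169087, and none of their bases was in a peak in any list. The only region within 5 kb was chr1:1162725-1163297, which holds the RefSeq start site of the host transcript MIR200BHG at position 1162877. GENCODE 44 has no such host gene, so by its TSSs this region, 3807 bp from MIR200B, counts as distal. It had an AUC of 433 in solvent, of 525 after 6 h, 497 after 24 h and 285 after 72 h. The 72 h list was thus the lowest, and the region was a weak one, with a smaller AUC at 28.6% of all regions that have a solvent peak. Scaled log2 ratios were −0.16 after 6 h, −0.18 after 24 h and −0.85 after 72 h. Of the 79658 regions with a peak in solvent and at 72 h, 1.85% had a ratio as low or lower. The 2835 regions that lost their solvent peak by 72 h have no ratio and are not in that share. Among the 25625 regions of a solvent AUC under 500 that kept a peak, the median at 72 h was 0.47 with a robust SD between regions of 0.66. A further 2549 such regions had lost theirs.

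The peak at this start site was narrowest at 72 h. The −log10 p at its summit was 6.83, 6.81, 7.23 and 6.23 in solvent and at 6, 24 and 72 h, so it too was lowest at 72 h. Whether the peak narrowed or fell as a whole was not tested. The peak spanned 564, 557, 494 and 345 bp in solvent and after 6, 24 and 72 h, while its summit stayed within 14 bp. AUC per base was 0.768 in solvent and 0.943, 1.01 and 0.825 in the TGFβ1 lists by time. Taken per base of peak, the scaled log2 ratio at 72 h was −0.072 instead of −0.85, and with the −log10 p at the summit it was −0.20, so the call as lower rested on the summed AUC and was lost under both.

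The MIR200BHG promoter, chr1:1162627-1162926 on the plus strand (RefSeq, GRCh38.p14), is shown since the retreating edge of the peak crossed it. It runs from 250 bases before the start site to 50 bases past it, and capitals mark the E-box CACCTG, the site bound by ZEB and SNAIL proteins.
MIR200BHG: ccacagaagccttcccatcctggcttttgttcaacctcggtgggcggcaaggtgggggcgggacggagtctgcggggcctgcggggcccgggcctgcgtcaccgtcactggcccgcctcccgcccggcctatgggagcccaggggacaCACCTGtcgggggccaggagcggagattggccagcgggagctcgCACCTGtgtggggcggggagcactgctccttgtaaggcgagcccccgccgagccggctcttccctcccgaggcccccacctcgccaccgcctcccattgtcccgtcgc
Both E-boxes, at positions −102 and −58 from the start site, lay inside the peak in solvent and until 24 h. The E-box at −102 was only just inside at 24 h, since it begins at 1162775 and the peak then began at 1162774. At 72 h the left edge of the peak was at 1162920 instead of 1162725, and neither E-box was covered. An E-box was found in 20.6% of 35116 RefSeq promoters of this length. A match of letters does not show that a factor was bound.

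The other 5 regions of the miR-200b/miR-200a/miR-429 window changed by less than 1.5-fold at every time. The largest, chr1:1157394-1158339, had AUCs of 2117, 2884, 2839 and 2680 in solvent and at 6, 24 and 72 h, with a scaled log2 ratio of 0.09 at 72 h. Next in size were chr1:1208022-1208688 near TNFRSF18, a receptor of the tumour necrosis factor family (1324, 2169, 2204 and 1761), and chr1:1121972-1122579 near C1orf159 (989, 1116, 1369 and 1162). At chr1:1201371-1201835, also nearest to TNFRSF18, AUCs were 574, 777, 1017 and 736. The region chr1:1217903-1218205 in SDF4, a gene for a calcium-binding protein of the Golgi, had 863, 793, 942 and 803, and its scaled log2 ratios of −0.56, −0.25 and −0.35 were below 0 throughout. Summed over the window, AUC was 6300 over 3311 bp of peaks in solvent and 7427 over 3286 bp at 72 h, or 6259 after scaling.

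At the miR-200c/miR-141 cluster the start site was open in all lists. MIR200C (chr12:6963699-6963766) and MIR141 (chr12:6964097-6964191) lie on the plus strand within the host gene MIR200CHG (chr12:6963226-6964447). A single peak per list, in the region chr12:6960792-6964172, had its summit at 6963204 to 6963206, next to the host's start. It had an AUC of 7640 in solvent, 9583 after 6 h, 8735 after 24 h and 7769 after 72 h, and 99.3% of regions with a solvent peak had a smaller one. The 6 h list was therefore the highest as deposited, and the 72 h list lay near solvent. After scaling, the log2 ratios were −0.11, −0.19 and −0.22 by time, none past 1.5-fold, where regions of a solvent AUC of 2000 or more had a median of −0.07 and a robust SD of 0.15 at 72 h. The MIR200C hairpin lay wholly in the peak in every list. Of the 95 bp of the MIR141 hairpin none were covered in solvent or at 72 h, 76 at 6 h and 70 at 24 h. Peak edges come from lists that are not scaled to each other, and at 6 and 24 h the scaled ratio of this region was below 0. Whether the wider peaks went with the larger AUCs of those lists was not tested.

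The MIR200CHG promoter (chr12:6962995-6963294, plus strand, RefSeq, GRCh38.p14) is given for comparison with that of MIR200BHG, with capitals again on the E-box.
MIR200CHG: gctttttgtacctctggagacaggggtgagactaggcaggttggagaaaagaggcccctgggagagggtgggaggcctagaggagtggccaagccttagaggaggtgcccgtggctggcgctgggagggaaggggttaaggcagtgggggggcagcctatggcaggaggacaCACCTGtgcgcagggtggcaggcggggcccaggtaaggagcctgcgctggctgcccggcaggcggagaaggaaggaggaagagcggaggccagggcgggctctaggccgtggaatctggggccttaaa
It holds a single CACCTG, at −78 from the RefSeq start site at 6963245, and that E-box was inside the peak in all 4 lists. The E-boxes of the MIR200BHG promoter were thus outside the peak at 72 h and that of the MIR200CHG promoter was not. The whole MIR200BHG start-site region holds 4 E-boxes, and that at −26 from the 72 h summit, past the end of the printed promoter, was still inside the 72 h peak.

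The 12 other regions around miR-200c/miR-141 lie in a stretch dense with genes, most of them at start sites of neighbours. The second region near the hairpins, chr12:6964924-6965396, had AUCs of 1324, 1542, 1425 and 1460 (scaled log2 −0.22, −0.27 and −0.11). Start-site regions of C12orf57 (chr12:6943301-6945048; 5574, 7158, 6536 and 6610) and of PTPN6, which codes for the phosphatase SHP-1 (chr12:6946032-6947104; 4226, 5170, 5157 and 4817), were the next largest and lay within 0.06 of 0 on the scaled log2 scale at 72 h. The highest ratios at 72 h among regions with a solvent peak were 0.32 at ENO2, a glycolytic enzyme gene (chr12:6914409-6914887; 474, 573, 700 and 703), and 0.30 at chr12:6995999-6996261 (351, 470, 453 and 513), which lies within transcripts of C1S and LPCAT3. The lowest were −0.42 at chr12:6998678-6999135 (1162, 1196, 1172 and 1033), within the same transcripts, and −0.23 at chr12:6925327-6926449 in ATN1 (2478, 3146, 2836 and 2498), which codes for the corepressor atrophin 1. A single region, chr12:6919683-6919923 in ENO2, had no solvent peak and AUCs of 226, 251 and 381 at 6, 24 and 72 h, little above the peak caller's minimum of 200. Over the window AUC was 31373 in solvent over 11054 bp and 34911 at 72 h over 11534 bp, or 29421 after scaling.

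**Figure D1:**
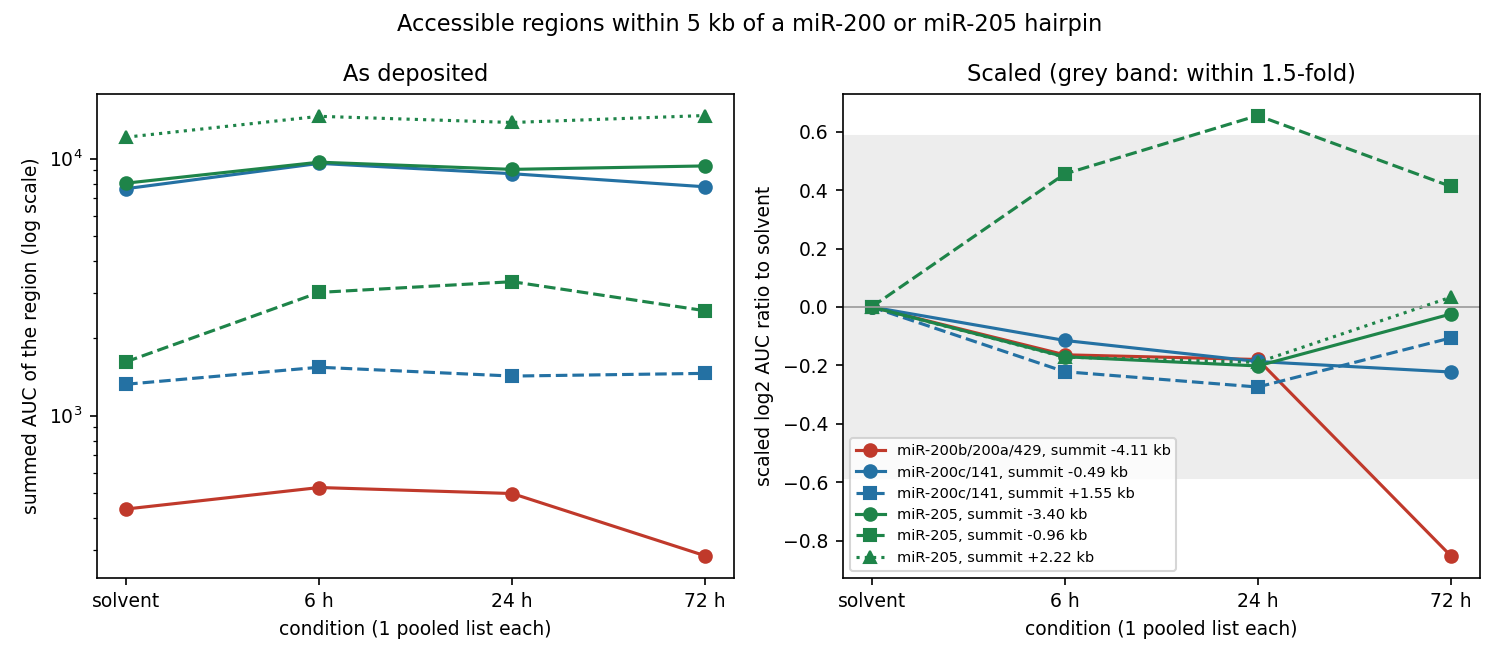
Accessible regions within 5 kb of a miR-200 or miR-205 hairpin, by condition (1 pooled list each, no replicate error). Left, summed AUC on a log axis; right, scaled log2 ratio to solvent, with a grey band for changes under 1.5-fold. The region at the MIR200BHG start site (red) left the band at 72 h (−0.85), that over the MIR205 hairpin (green squares) at 24 h (0.66), and the other 4 regions stayed inside it.

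MIR205 differed from both miR-200 clusters in the amount of open chromatin around it. Its hairpin (chr1:209432133-209432242, plus strand) lies in the host gene MIR205HG (chr1:209428817-209432848), and its window held 17 regions. The median over 1877 miRNA genes was 6 regions, and 95.5% of these genes had fewer than MIR205, against 85.2% for MIR200C and MIR141 and 39.2% for MIR200B. In solvent the summed AUC over the MIR205 window was 53672, compared with 31373 for miR-200c/miR-141 and 6300 for miR-200b/miR-200a/miR-429.

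There were 3 regions within 5 kb of the MIR205 hairpin. The strongest, chr1:209432854-209436009, starts 612 bp downstream of the hairpin and had AUCs of 12118, 14610, 13825 and 14716 in solvent and at 6, 24 and 72 h. It exceeded 99.9% of regions with a solvent peak, its summit was at 209434351 in every list, and its scaled log2 ratios were −0.17, −0.19 and 0.03. The region at the MIR205HG start site, chr1:209427323-209429547, had AUCs of 8028, 9687, 9081 and 9367, with ratios of −0.17, −0.20 and −0.02. Neither came near 1.5-fold at any time.

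The region over the hairpin itself, chr1:209429947-209432437, was weaker and larger in all TGFβ1 lists. It had an AUC of 1620 in solvent and of 3016, 3320 and 2559 after 6, 24 and 72 h, with scaled log2 ratios of 0.46, 0.66 and 0.41, past 1.5-fold at 24 h alone. The hairpin was outside all peaks in solvent, 502 bp from the nearest, and all of its 110 bp were covered at 6, 24 and 72 h. As at MIR200BHG, the length covered by peaks changed along with the AUC. Peaks in the region covered 1222 bp in solvent and 1990, 2427 and 2215 bp at 6, 24 and 72 h, and per base the scaled log2 ratios were −0.10, −0.21 and −0.37, below 0 at every time.

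The MIR205HG promoter (chr1:209428570-209428869, plus strand, RefSeq, GRCh38.p14) is printed because it holds no CACCTG and so stays in lower case throughout.
MIR205HG: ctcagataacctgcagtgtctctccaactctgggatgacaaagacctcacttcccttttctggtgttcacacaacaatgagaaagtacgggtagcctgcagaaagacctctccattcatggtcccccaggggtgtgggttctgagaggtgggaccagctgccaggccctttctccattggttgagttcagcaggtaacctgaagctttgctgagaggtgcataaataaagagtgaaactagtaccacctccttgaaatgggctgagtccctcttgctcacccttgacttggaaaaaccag
All of its 300 bases lay in the region at the MIR205HG start site. No AP-1 motif TGACTCA was in it either, as in most promoters, since 4.95% of RefSeq promoters held one.

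To see where accessibility rose, all regions with a peak in both lists were counted. Of the 33 regions at the 3 loci that had a solvent peak, 2 were higher at 6 h, where 11.7% of all regions were. At 24 h it was 4 regions against 20.3% of all, and at 72 h 4 regions against 22.9%. Each of the regions called higher was at MIR205, where 15 regions had a solvent peak. None of the 33 was lower at 6 h or at 24 h, where 1.40% and 3.22% of all regions were, and the MIR200BHG region was the single one lower at 72 h, against 3.90%. Gained were 3 regions, the same at each time, against 22.9%, 29.8% and 29.3% of all regions with a peak in either list. No solvent peak was lost at the 3 loci. Of the 82493 regions with a solvent peak, 589, 1538 and 2835 lost it by time. These are 0.551%, 1.31% and 2.43% of all regions with a peak in either list. The share of members called higher or gained was not above that of all regions at any time.

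Regions weak in solvent were called higher more often than strong ones across the genome. Of all regions with a solvent AUC under 500, 25.3%, 40.6% and 43.3% were higher by time, whereas of those of 2000 or more 0.392%, 0.956% and 1.53% were. Solvent AUC is also the denominator of the ratio, and regions that lost their peak are left out. The grouping itself therefore favours a rise in the weak set. At the 3 loci, 7 regions had a solvent AUC under 500. The 4 of these at MIR205 were the 4 called higher at 72 h, the 2 near miR-200c/miR-141 kept within 1.5-fold, and the MIR200BHG region was lower. Median scaled log2 ratios over the 33 regions were −0.094, −0.076 and 0.034 by time, beside 0.064, 0.12 and 0.15 over all regions. At 72 h the median was 0.04 for miR-200b/miR-200a/miR-429, −0.08 for miR-200c/miR-141 and 0.16 for MIR205.

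**Figure D2:**
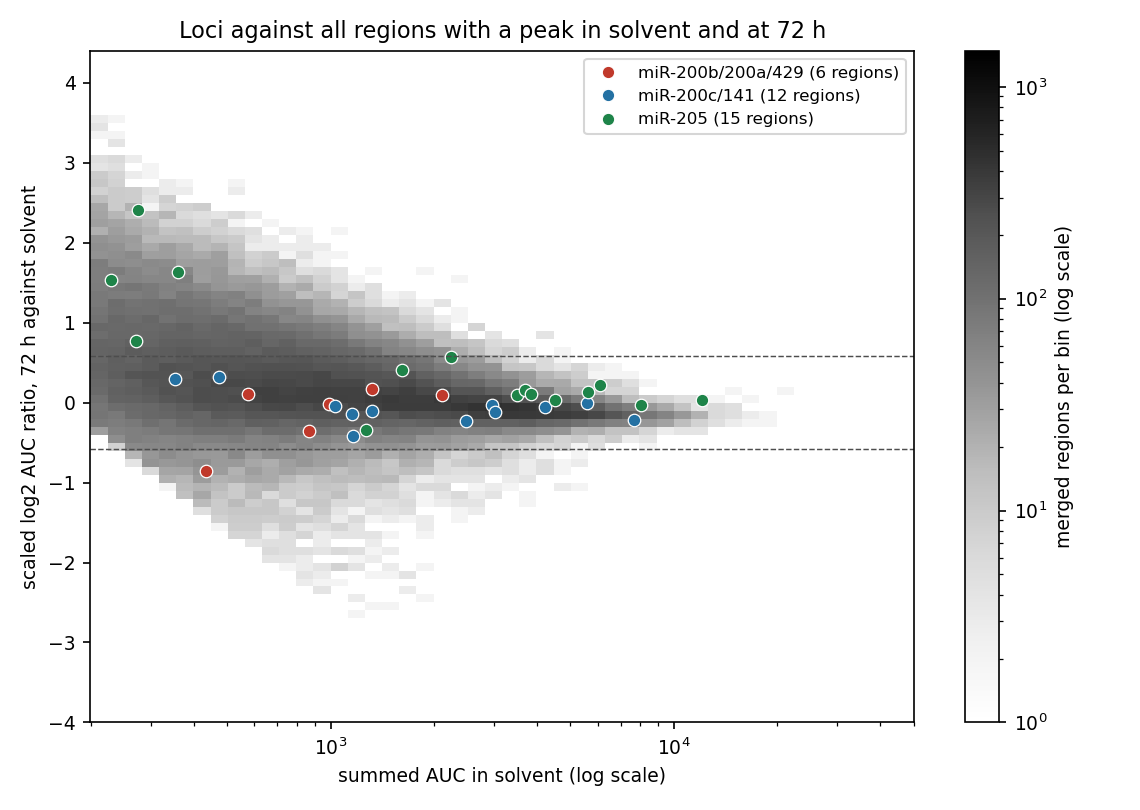
Scaled log2 AUC ratio at 72 h against solvent AUC (log axis) for all 79658 regions with a peak in both lists (grey, number of regions per bin on a log scale) and for the 33 regions of the 3 loci (coloured points). Dashed lines mark 1.5-fold. The 4 miR-205 points above the upper line have solvent AUCs between 229 and 360. Most strong regions of the 3 loci lie near 0, but chr1:209387102-209388702 at miR-205 (solvent AUC 2237) lies at 0.57, just under the upper line.

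The 4 regions higher at 72 h, all at MIR205, were distal, between 7262 and 31316 bp from the nearest TSS. The largest rise of all 3 loci was at chr1:209409807-209410420, upstream of MIR205HG, with AUCs of 274, 843, 1069 and 1722 and scaled log2 ratios of 1.18, 1.58 and 2.41. It grew at each time point, and 99.65% of the regions with a peak in solvent and at 72 h had a ratio no higher. It also rose per base (1.29 at 72 h). Downstream of the hairpin, chr1:209444078-209444655 had AUCs of 360, 1063, 1416 and 1321 (1.12, 1.60 and 1.63), so most of its rise was reached at 6 h. Here the strongest summit moved by 313 bp, from 209444188 in solvent to 209444501 at 72 h, and per base the ratio at 72 h was 0.22, not past 1.5-fold, with a peak length of 192 bp in solvent and 537 bp at 72 h. Among the 33 regions it was the only one whose summit moved by more than 100 bp, the median shift at 72 h being 4 bp.

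The other regions called higher at 72 h are named although their values had been seen. At chr1:209463449-209463868 AUCs were 229, 354, 457 and 784 (0.19, 0.62 and 1.53; 0.71 per base at 72 h), a later rise than at the preceding regions. At chr1:209421293-209421555 they were 271, 344, 502 and 548 (−0.10, 0.51 and 0.77), and per base this region was within 1.5-fold. With the −log10 p at the summit, chr1:209409807-209410420 alone stayed past 1.5-fold at 72 h (0.62). Just under the threshold at 72 h was chr1:209387102-209388702, with AUCs of 2237, 3970, 3922 and 3951 and ratios of 0.39, 0.43 and 0.57.

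Gained regions at MIR205 were chr1:209443459-209443798, with AUCs of 407, 371 and 302 at 6, 24 and 72 h, and chr1:209455212-209455460, with 421, 664 and 805. The former was largest at 6 h and the latter at 72 h. The lowest ratios at 72 h in this window were −0.34 at chr1:209452290-209452787 (1272, 1449, 1326 and 1188) and the −0.02 of the MIR205HG start site. The third strongest region, chr1:209403603-209406462, had AUCs of 6086, 8444, 7140 and 8442 and a ratio of 0.22 at 72 h. At 72 h 13 of the 15 regions with a solvent peak were above 0 after scaling, against 7 at 6 h and at 24 h. Of all regions with a ratio, 50927 of 79658 were above 0 at 72 h, and 34878 of 47560 distal ones. At 6 h it was 48438 of 81904 regions and at 24 h 50632 of 80955. The scaling median was that of regions near a TSS, whereas most of this window is distal. Over the whole window AUC was 53672 over 17229 bp in solvent and 72784 over 21662 bp at 72 h, or 61338 after scaling, while AUC per base was 3.12 and 3.36.

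**Figure D3:**
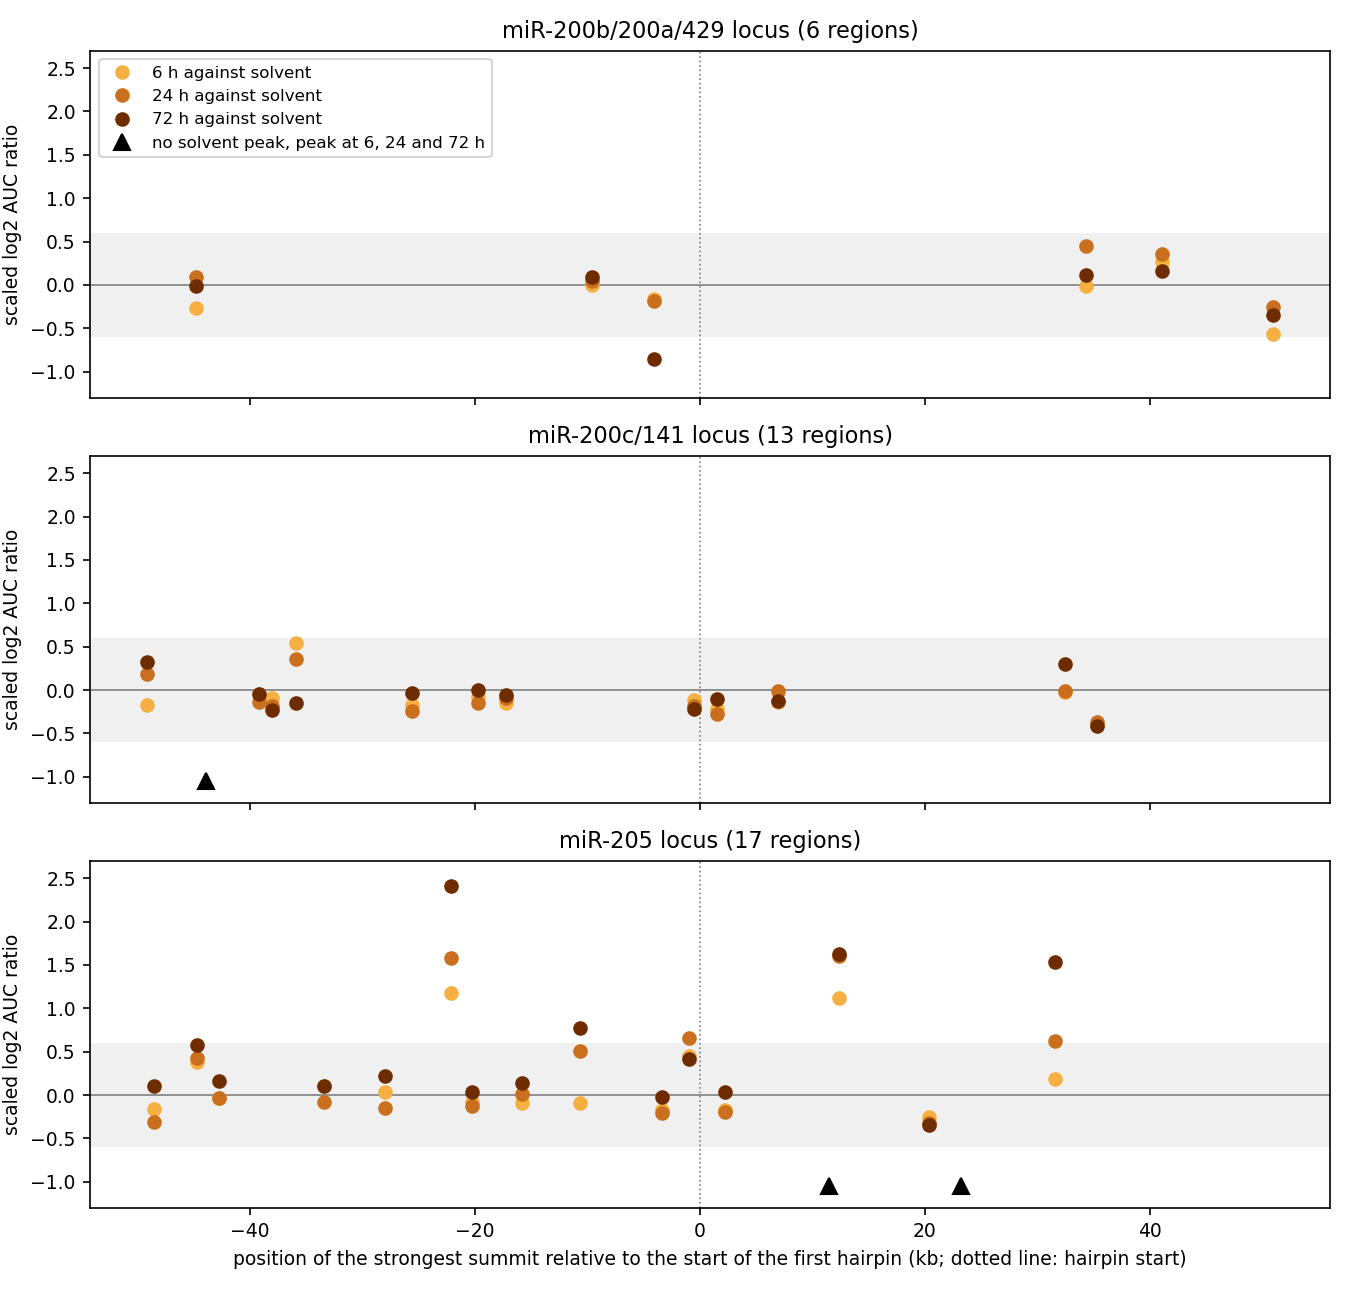
Scaled log2 AUC ratio of each region at the 3 loci by the distance of its strongest summit from the start of the first hairpin (kb), at 6, 24 and 72 h (light to dark). The grey band marks changes under 1.5-fold and black triangles, drawn at a fixed height, the 3 regions without a solvent peak; points above the band are at miR-205 alone, and the single point below it is the MIR200BHG start site at 72 h (−0.85).

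Sequence at the summits was then searched on both strands, within 100 bases of the strongest summit in solvent, or at 72 h for gained regions. The E-box CACCTG was in 15 of the 36 regions (41.7%) and in 19.3% of all solvent peaks. By locus it was in 3 of 6 regions at miR-200b/miR-200a/miR-429, 5 of 13 at miR-200c/miR-141 and 7 of 17 at MIR205. The AP-1 motif TGACTCA, bound by JUN and FOS proteins, was in 13 of 36 regions (36.1%) and in 29.96% of all solvent peaks, or 37.4% of distal ones. TEAD (GGAATG) was in 3 regions (14.8% of all peaks), the p53 family half-site also in 3 (7.33%), and RUNX (TGTGGTT), GRHL (AACCGGTT) and the SMAD palindrome (GTCTAGAC) in none, with 5.64%, 0.0650% and 0.187% of all peaks. None of the 6 motifs spelled out here contains another.

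At MIR205, 3 of the 6 distal regions that were higher at 72 h or gained had an AP-1 motif within 100 bases of the 72 h summit. The gained region chr1:209455212-209455460 is shown as an example of them. The sequence is the plus strand from 100 bases before to 100 bases after its summit at 72 h (hg38), and capitals mark the motif, here on the minus strand as TGAGTCA.
chr1:209455263-209455463: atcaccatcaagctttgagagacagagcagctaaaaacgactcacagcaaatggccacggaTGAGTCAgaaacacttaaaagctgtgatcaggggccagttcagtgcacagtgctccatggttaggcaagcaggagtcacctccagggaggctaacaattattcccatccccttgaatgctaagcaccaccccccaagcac
The motif lies at −36 from the summit. Without AP-1 were the 3 others that were higher or gained, of which chr1:209443459-209443798 and chr1:209463449-209463868 had an E-box and chr1:209421293-209421555 neither. Since AP-1 was in 39.3% of all distal peaks at 72 h, its presence in 3 of these 6 regions is a description of them only.

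Genes that act on these loci were looked up next by the AUC summed over all regions within 3 kb of their TSSs. Accessibility there is not expression. Of 10 regulators 1 was higher at 6 h, none at 24 or 72 h, and none was lower, while of all protein-coding genes 3.71%, 6.01% and 5.65% were higher and 0.252%, 0.618% and 1.03% lower. The repressor ZEB1 had AUCs of 5016, 7027, 6705 and 5851, with scaled log2 ratios of 0.04, 0.04 and −0.02. ZEB2 had 3302, 4998, 4904 and 4196, with 0.16, 0.19 and 0.10. The start sites of both genes were thus open in solvent, and their scaled values stayed within 1.5-fold. TP63, which codes for p63, was the regulator called higher at 6 h, with AUCs of 757, 1592, 1235 and 1223 and ratios of 0.63, 0.33 and 0.45. Its 6 h sum includes 1 gained region, with 4 regions at 6 h and 3 in solvent, and the call without that region was not tested. GRHL2, an activator of epithelial genes, had 1825, 2699, 2504 and 2466 (0.12, 0.08 and 0.19), and the lowest at 72 h was SNAI1, the gene of the repressor SNAIL1, with −0.19. Medians over the list were 0.05, 0.02 and −0.06, beside −0.02, −0.03 and −0.04 over all protein-coding genes.

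Among 16 known targets of the miR-200 family or miR-205, ZEB1 and ZEB2 included, 2 were higher at each time and none was lower. Over all protein-coding genes 3.71%, 6.01% and 5.65% were higher by time, and 0.252%, 0.618% and 1.03% lower. FN1, the gene of the matrix protein fibronectin, had AUCs of 1563, 4029, 5083 and 6310 and scaled log2 ratios of 0.92, 1.32 and 1.77. Its 72 h sum includes 2 gained regions, with 5 regions at 72 h and 3 in each other list. WIPF1, a regulator of actin assembly, had 221, 522, 609 and 562 (0.80, 1.08 and 1.10), but its single solvent region had no peak at 24 and 72 h, when 2 other regions carried the AUC. The lowest at 72 h was SUZ12, a subunit of Polycomb complex PRC2, with −0.24. Medians were 0.09, 0.07 and 0.02, so that most of the list stayed near the median of all genes. The 7 genes of miRNA processing (DROSHA and DGCR8, which cut the primary transcript, the exporter gene XPO5, DICER1, TARBP2, AGO1 and AGO2) were all within 1.5-fold, from −0.17 for XPO5 to 0.15 for DROSHA at 72 h.

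For comparison, the strongest regions near 6 other miRNA genes or hosts were followed in the same way. At MIR21, the gene of a miRNA abundant in many cancers, AUCs were 17616, 28115, 26762 and 25302, with a scaled log2 ratio of 0.28 at 72 h. MIR222 (661, 1168, 1485 and 1726) was higher at 24 h, with a ratio of 0.79, and at 72 h, with 1.14. The host gene MIR100HG (2421, 4305, 4661 and 4503) was higher at 72 h, with 0.65, after 0.57 at 24 h. MIR203A, whose miRNA is characteristic of stratified epithelium, went from 997 in solvent to 1835 and 1771 at 6 and 24 h and to 635 at 72 h, with ratios of 0.44, 0.45 and −0.90. Like the MIR200BHG region it was lower at 72 h alone. MIR17HG was at −0.16 and MIR31HG at 0.43 at 72 h. Of all regions within 50 kb of any miRNA gene, 16.1% were higher and 4.58% lower at 72 h.

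The protein-coding start sites most like each strongest region near the hairpins were found by the Euclidean distance over the 3 scaled log2 ratios, among regions of a solvent AUC within 2-fold. For MIR200BHG these were SIDT1 (distance 0.0520), B2M, the gene of the light chain of MHC class I (0.0563), and DENND2D (0.0601), among 8344 candidates. For MIR200CHG they were CCSER2 (0.00727), the deubiquitinase gene USP15 (0.00837) and the topoisomerase gene TOP2B (0.00872), among 4573. For MIR205 the closest were the kinase gene CSNK1D (0.0129) and HIVEP2 (0.0559), among 1295. With 3 values a region and so many candidates, close matches always occur.

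The cell type given by the labels was checked by whether marker genes had a peak within 3 kb of a TSS in solvent. All 5 markers of basal mammary epithelium (KRT5, KRT14, KRT17, TP63 and ITGB4) and all 4 epithelial markers (EPCAM, CDH1, KRT8 and KRT18) did, but so did all 4 fibroblast and both endothelial markers and 1 of 3 leukocyte markers (PTPRC). Of all 20046 protein-coding genes, 15075 had such a peak. Open start sites therefore did not separate cell types here. At 72 h the median scaled log2 ratio was 1.19 over the 2 endothelial markers and 0.90 at the leukocyte marker with a peak. It was 0.45 over the basal, 0.34 over the fibroblast and −0.05 over the epithelial markers, beside −0.04 over all protein-coding genes. The part of these markers in the values at the miRNA loci was not tested.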

How the data were processed

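ATAC-seq of 8 MCF10A libraries (4 conditions, 2 replicates each) was used as 4 peak lists, 1 per condition, whose condition was read from the name given to each list. Per the study's methods and processing notes, the authors trimmed paired reads (Trimmomatic 0.38), mapped them to GRCh38 (Bowtie2 2.4.5), removed PCR duplicates (Picard) and mitochondrial or poorly mapped reads (SAMtools 1.4.1), and called peaks on both replicates together with Genrich 0.5, which handles the transposase cut sites in its ATAC-seq mode, removing blacklisted regions. The deposited signal is the AUC of each peak (minimum 200), not scaled between lists. It rises with depth and peak width. The deposited score is the AUC per base, capped, and each −log10 p, as deposited, belongs to a summit; −log10 q was not used. Read depth per list is unknown.

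Lists were merged (overlap of 1 bp or more) and AUCs summed per region, with scaling, calls and windows as stated above. Named were regions within 5 kb of a hairpin, in each window the 3 of largest solvent AUC and the 2 lowest and 2 highest at 72 h, those gained throughout, and others as noted. Members, gene lists and motifs were chosen with earlier results of these data known. Scripts (Python 3.11.15, numpy 2.4.6, pandas 2.3.3, pysam 0.24.0, matplotlib 3.10.9) were tested on simulated data. The study's own tests on reads per replicate were not used here. Some genes and sequences that these rules name are not reported here.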

Additional observations from a re-analysis of the deposited data

How the results depend on the processing

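No paired analysis was possible because each list pools both replicates, and for the same reason no replicate could be left out. A change counted as small here is within the robust SD between regions, since no spread between replicates is known. Without scaling, the log2 ratio at 6 h was 0.28 at the MIR200BHG region, 0.33 at MIR200CHG and 0.27 at the region next to MIR205, with 7 regions higher at 6 h and 9 at 24 h. In the same order the unscaled ratios at 24 h were 0.20, 0.19 and 0.19, and MIR200CHG had 0.02 at 72 h. All of these were above 0 where the scaled values were below it. With the AUC per base, the MIR200BHG ratio at 72 h was −0.072, and 1, 1 and 2 regions were higher at 6, 24 and 72 h, with 1 lower at 24 h and 0 at 72 h. With the −log10 p at the summit, the MIR200BHG ratio at 72 h was −0.20, 0, 0 and 1 regions were higher, and 0 were lower at 72 h. Scaling by the median of all regions gave 1 region lower at 6 h and 2 higher at 24 h. At 2-fold, 2 were higher at 24 h and 0 lower at 72 h. Windows of 100 kb held 72 regions, with 5, 9 and 10 higher, 1 lower at 24 h and 2 at 72 h, 5 gained at each time, and 1 lost after 72 h. With changed regions of AUC 400 or more, 1 was gained at 24 h and 1 at 72 h. With lists of equal length, 1 was gained at 24 h and 1 at 72 h, and 2 were lost at 6 h and 1 at 72 h. The 112 values that moved less under an alternative include the unscaled lead-region ratios at 24 h and that of MIR200CHG at 72 h, although these changed sign. They also include the MIR200BHG ratio at 24 h, which went from −0.18 to 0.13 per base. The ratio next to MIR205 at 72 h went from 0.03 to −0.11 when scaled by all regions, and is among them too. Why the values that moved did so was not tested, except that AUC per base differs from AUC by peak length alone.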
